A study of Mus musculus with 11 samples.

Results

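The Mta3 locus on chromosome 17 was examined for occupancy by PU.1 in normal and leukemic erythroid cells. The region was the gene body of Mta3 with 50 kb on each side (mm9, chr17:84055503-84273055), and the sites in it were chosen by counting shifted read 5′ ends in windows of 500 bp moved by 50 bp and comparing PU.1 ChIP with the depth-scaled input of the same cell type. By this rule 10 of the 38226 sites found over the genome lie in the region. The gene was picked with the reads of these libraries already known, so the ChIP to input ratios of its sites and their differences between the cell types are given as a description, without a test.

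In ChIP-Seq, chromatin is fixed and sheared, an antibody pulls down the fragments that carry a protein of interest, and their ends are read. MEL cells are murine erythroleukemia cells, here carrying a stable transgene for a fusion of GATA-1 with ER. All MEL libraries, input included, come from clone 4 of these cells and were grown with puromycin. ES-EP are erythroid progenitors derived from embryonic stem cells and were grown with Epogen, IGF-1, dexamethasone and SCF. The labels give no further treatment of either cell type, and the same antibody (T-21, Santa Cruz) was used for both. For each cell type, the ChIP libraries are labelled A1, A2, B1 and B2. The letter is taken here as 1 of 2 preparations of chromatin and the number as its library, which the labels do not state. The inputs are 1 library of MEL cells and 2 of ES-EP. Expression was not measured in these libraries, so the identity of the cells could not be checked against marker genes.

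PU.1, encoded by Sfpi1, is an Ets family transcription factor that drives myeloid and B cell development and is silenced as red cells mature. It binds DNA through a GGAA core, preferably in a purine-rich context such as GAGGAAGT. Mta3 encodes a subunit of the NuRD complex, which combines a chromatin remodelling ATPase with histone deacetylases and is commonly linked to repression. The metastasis-associated proteins Mta1, Mta2 and Mta3 take the same place in that complex, and Mta3 is known in B cells as a partner of the repressor Bcl6.

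Depth was similar in the 2 cell types, with 12685078 PU.1 ChIP reads on chromosomes for MEL cells against 13380580 for ES-EP. Each preparation held between 5697937 and 7095855 of these reads, and the inputs held 4278560 reads (MEL) and 7488885 reads (ES-EP). As a check of the assay, the site nearest to the study's amplicon in the upstream regulatory element of Sfpi1, a known site of PU.1, had 23 and 97 reads in the MEL preparations A and B. ES-EP had 33 and 38 reads there, and the inputs of MEL cells and ES-EP had 4 and 3.

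Mta3 lies on the plus strand (chr17:84105503-84223055), and 5 transcripts are annotated. Sites are named here by the distance of their middle from the start of the gene. The first site, at -10.2 kb, is intergenic. One site covers the transcription start itself, with its middle -53 bp from it, and the next lies at +2.2 kb in intron 1. The sites at +26.1, +29.9 and +30.8 kb are in intron 3 of 16 of the transcript Mta3-001, and the site at +64.4 kb is in its intron 8. The sites at +101.5 and +103.2 kb are in its last intron. The last site, at +155.3 kb, is intergenic and lies beyond the start of Haao, a gene of tryptophan breakdown that runs toward Mta3 on the minus strand. None of the middles falls in an exon.

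The sequences at the 4 sites with the most ChIP reads are shown to set the sites that differ beside those that are shared: the first 2 were called in ES-EP and held 1 MEL ChIP read each, whereas the last 2 were called in both. Each stretch is 151 bases around the centre of the reads, taken as the midpoint between the median 5′ ends of the strands, and is written on the plus strand of the mm9 assembly. Capitals mark the match to the PU.1 matrix or, at +30.8 kb where no match passed, the core nearest to the centre. All 4 marked cores are on the minus strand and read TTCC here.
+30.8 kb, chr17:84136189-84136339: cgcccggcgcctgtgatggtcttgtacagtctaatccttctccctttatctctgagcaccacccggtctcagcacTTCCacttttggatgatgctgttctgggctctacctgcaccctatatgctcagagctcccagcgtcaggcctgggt
+64.4 kb, chr17:84169811-84169961: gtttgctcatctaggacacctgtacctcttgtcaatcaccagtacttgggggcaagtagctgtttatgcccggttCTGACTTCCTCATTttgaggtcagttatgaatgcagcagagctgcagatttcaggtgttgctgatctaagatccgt
+101.5 kb, chr17:84206886-84207036: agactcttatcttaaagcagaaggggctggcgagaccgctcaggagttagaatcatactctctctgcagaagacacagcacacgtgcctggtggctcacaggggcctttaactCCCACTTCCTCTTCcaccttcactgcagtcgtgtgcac
-10.2 kb, chr17:84095256-84095406: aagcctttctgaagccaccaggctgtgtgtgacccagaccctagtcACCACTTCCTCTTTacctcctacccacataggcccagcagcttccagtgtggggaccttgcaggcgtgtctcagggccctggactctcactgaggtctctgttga

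**Figure D1:**
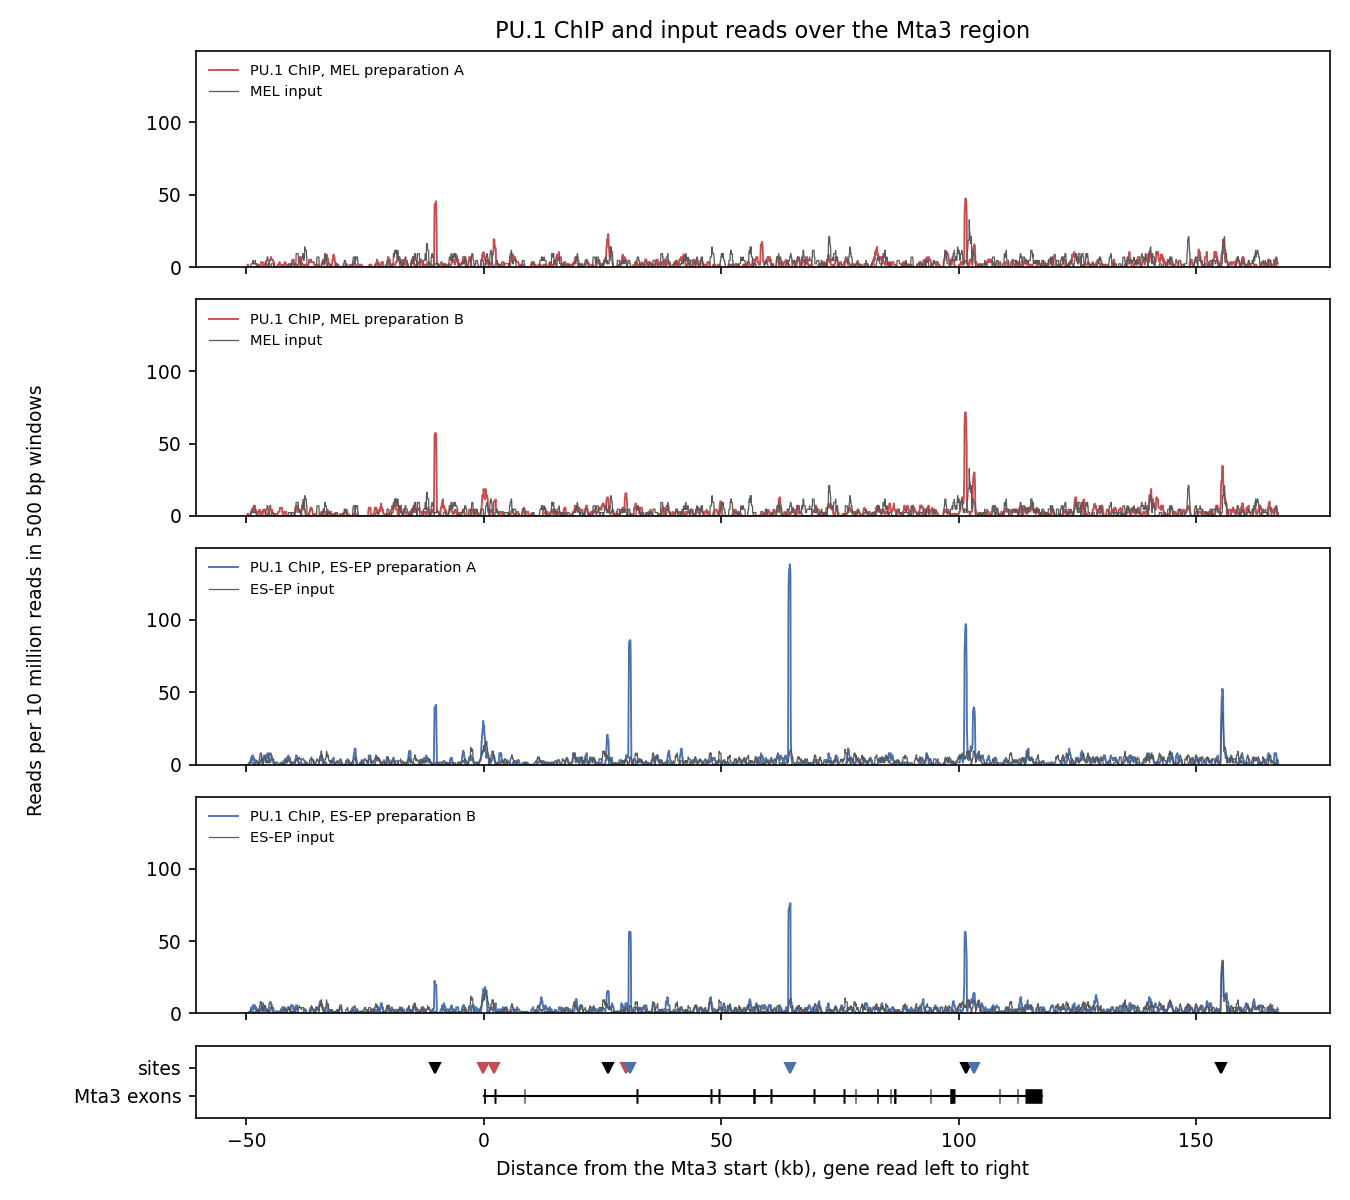
PU.1 ChIP reads (colour) and input reads (grey) per 10000000 reads in 500 bp windows, by distance from the Mta3 start in kb, for each preparation. Triangles mark the sites called in both cell types (black), in MEL cells (red) or in ES-EP (blue), and black blocks are exons; the peaks at 30.8 and 64.4 kb stand in both ES-EP preparations and in neither MEL preparation, while the peak at 101.5 kb stands in all 4.

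The main difference between the cell types lay in 2 introns. At +64.4 kb (chr17:84169701-84170200) the ES-EP preparations A and B held 87 and 53 ChIP reads, whereas the MEL preparations held 0 and 1. The 4 ES-EP libraries held 29, 58, 17 and 36 of these reads, and the MEL read came from the first library of preparation B. Both ES-EP preparations were far above both MEL preparations and the groups did not overlap. Depth-scaled reads of the 2 cell types do not overlap at 53.5% of all sites, so nothing is read from this by itself, and in the region they do not at 5 of 10.

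The input at this site had 7 reads in ES-EP and 3 in MEL cells. Relative to depth-scaled input, the reads of ES-EP were 14.8-fold higher in preparation A (95% interval 6.89 to 37.9) and 7.99-fold higher in preparation B (3.62 to 20.8). The ChIP to input ratio of MEL cells, with both preparations summed, was 0.112 (0.00214 to 1.40). The depth-scaled ratio of ES-EP to MEL reads was 133, and since a single MEL read stands behind it, its interval is wide (23.4 to 5279). All intervals are exact binomial ones and cover counting error only. They leave out the spread between preparations, and they take reads as independent molecules, which copies from PCR are not.

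The second site was at +30.8 kb (chr17:84136101-84136600), where the ES-EP preparations A and B held 54 and 40 reads. The MEL preparations held 0 and 1. The ES-EP libraries held 26, 28, 13 and 27 reads. The preparations again did not overlap, and the lone MEL read was again in the first library of preparation B.

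The input at +30.8 kb was 4 reads in ES-EP and 1 in MEL cells. ES-EP ChIP was 16.1 times the scaled input in preparation A (5.93 to 61.2) and 10.6 times in preparation B (3.82 to 40.6). The ratio of ES-EP to MEL reads was 89.1 (15.6 to 3557).

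MEL cells showed no peak at either intronic site. Outside the sites, the 2 MEL preparations together had a mean of 3.21 ChIP reads per 500 bp and those of ES-EP had 3.08, so that the single MEL read at each site was 0.312 times the MEL mean, while ES-EP reached 45.5 and 30.5 times its mean at +64.4 and +30.8 kb. At a mean of this size, a value below the background is not detectable at this depth.

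The sites came out again in the preparation that had not been used to call them. When sites were called without ES-EP preparation A, the windows found were chr17:84136001-84136500 and chr17:84169851-84170350. They held 54 and 82 reads of preparation A, where 3.36 and 6.71 were scaled from input. When preparation B was left out, the windows at +30.8 and +64.4 kb held 40 and 53 of its reads against 3.79 and 6.63. Since the locus was picked with both preparations known, this is a description as well.

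**Figure D2:**
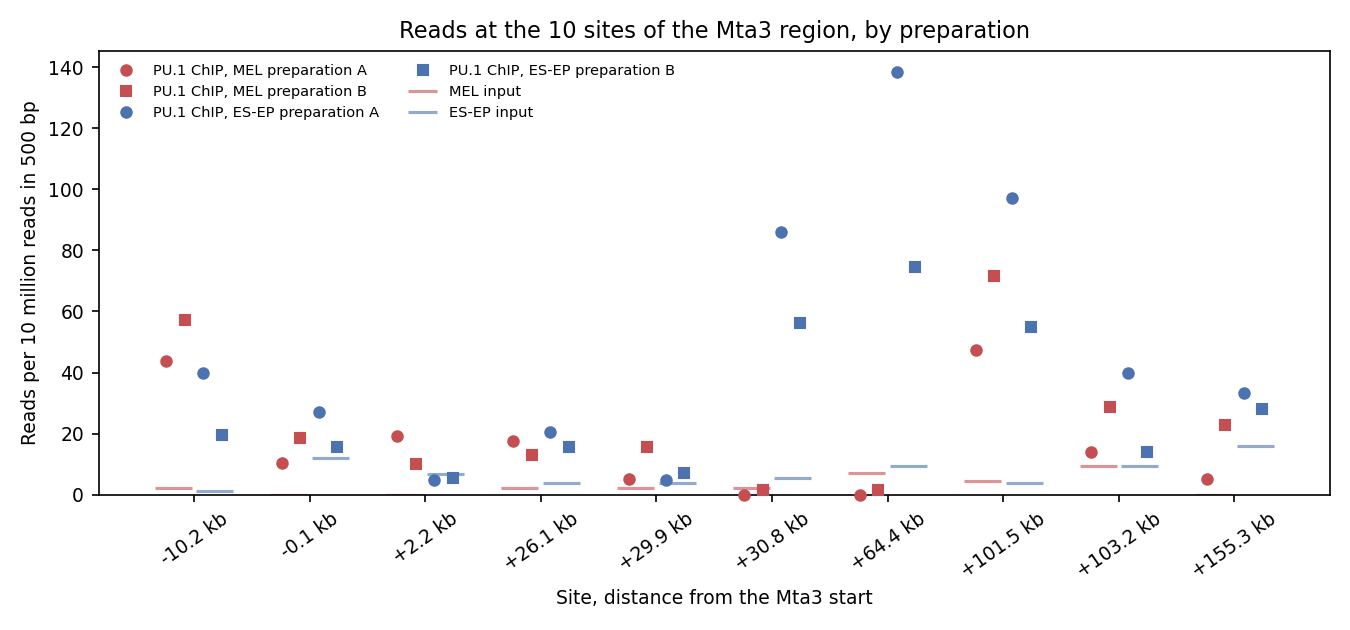
Reads per 10000000 reads in the 500 bp of each of the 10 sites, for preparations A (circles) and B (squares) of MEL cells (red) and ES-EP (blue), with input as short lines; the second site from the left is that at the transcription start. The 2 cell types are apart at +30.8 and +64.4 kb, where ES-EP lie between 56.4 and 138 and MEL cells at or below 1.43.

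The strongest site that both cell types share was at +101.5 kb (chr17:84206751-84207250). MEL preparations A and B had 27 and 50 reads at it, ES-EP had 61 and 39, and the inputs had 2 (MEL) and 3 (ES-EP). The ChIP to input ratio was 12.99 for MEL cells (3.47 to 109) and 18.7 for ES-EP (6.20 to 92.0). The preparations of the cell types overlap here, and the ES-EP to MEL ratio was 1.23 (0.906 to 1.68).

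The site at -10.2 kb (chr17:84095101-84095600) had 25 and 40 MEL reads and 25 and 14 ES-EP reads, with 1 input read in each cell type. It is the site of the region with the most MEL reads after that at +101.5 kb. ES-EP had 0.569 times the reads of MEL cells (0.372 to 0.859), and the lower MEL preparation equals the higher one of ES-EP in reads as counted. Scaled to depth, the MEL preparations (43.9 and 57.2 reads per 10000000) lie above those of ES-EP (39.8 and 19.7).

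The remaining 6 sites were weak. The site at the transcription start had 6 and 13 MEL reads and 17 and 11 ES-EP reads, but also 9 input reads of ES-EP and 0 of MEL cells. Against its own input, ES-EP was 1.74-fold higher there (0.799 to 4.19), an interval that includes no enrichment. With a floor of 3 reads put in place of the 0 MEL input reads, MEL ChIP was 2.14-fold higher than input. The exact lower 95% limit of the MEL ratio was 1.57 with both preparations summed. It was 0.884 in preparation A, which includes no enrichment, and 1.87 in preparation B. The ES-EP to MEL ratio of ChIP reads was 1.40 (0.753 to 2.65).

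At +2.2 kb MEL cells had 11 and 7 reads and ES-EP 3 and 4, with 5 ES-EP input reads and 0 in MEL cells. Its ES-EP to MEL ratio, 0.369 (0.130 to 0.925), was the lowest of the region, and the preparations of the cell types did not overlap, as at 53.5% of all sites. At +26.1 kb 10 and 9 MEL reads stood against 13 and 11 of ES-EP, and the ratio was 1.20 (0.629 to 2.31).

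At +29.9 kb, within 1 kb of the ES-EP site at +30.8 kb, MEL cells had 3 and 11 reads and ES-EP 3 and 5. At +103.2 kb MEL cells had 8 and 20 reads and ES-EP 25 and 10. At +155.3 kb MEL cells had 3 and 16 reads and ES-EP 21 and 20, beside 0 and 12 input reads. The preparations of the 2 cell types overlap at +29.9 and +103.2 kb, and at +155.3 kb they do not, as at 53.5% of all sites.

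The ES-EP input itself is uneven at +155.3 kb. The 500 bp window with the most ES-EP input reads in the region, 27, has its middle at 155.598 kb. The ChIP to input ratio of ES-EP at the site was 1.91 (0.986 to 4.00), and the part of the input signal in its reads was not tested.

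In all, 7 of the 10 sites were called in ES-EP and 7 in MEL cells, with 4 called in both. Over the genome 53.6% of sites were called in ES-EP, 71.9% in MEL cells and 25.5% in both. Reads were more than 5-fold higher in ES-EP after scaling to depth at 2 of the 10 sites, against 3.86% of all sites, and no site had more than 5-fold more in MEL cells (5.75% of all sites). Nothing is read from these counts because the same reads chose the locus. Of the sites past the 5-fold line toward ES-EP the lower was that at +30.8 kb, far above it with 89.1, and the highest of those short of it was the site at +155.3 kb with 2.05 (1.16 to 3.73). Toward MEL cells the nearest was the site at +2.2 kb, with a MEL to ES-EP ratio of 2.71. With input subtracted before the ratio, 1 site, that at +2.2 kb, passed the line in that direction. Its 7 ES-EP reads lay below the 8.93 scaled from input and were set to 0, so no fold can be given.

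Summed over the 7 sites called in ES-EP, the reads of preparation A of ES-EP were 9.21 times the scaled input and those of preparation B 5.33 times (mean 7.27 ± 2.74, SD, n = 2). MEL preparations A and B had 4.57 and 6.99 times their input over the same windows (5.78 ± 1.71, SD, n = 2). The ES-EP value depended on the processing. Over the same 7 sites it was 16.1 with the input density in 10 kb, and MEL cells had 5.67. In 3 other runs the sites were called anew. The ES-EP value was 19.7 with windows of 200 bp (6 ES-EP sites), 14.7 with first libraries (4) and 12.6 without ES-EP preparation B (6). MEL cells had 7.95, 5.36 and 5.31 over those sites. The part of the changed sites in these values was not tested. The summed ES-EP to MEL ratio of 2.14, which takes in the sites at +30.8 and +64.4 kb, was not tested. With preparations matched by their letter alone, which does not pair them, it was 3.55 for A and 1.34 for B.

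At the strongest sites plus-strand ends lay left of minus-strand ends. At +64.4 kb 59 plus-strand and 81 minus-strand reads of ES-EP had median 5′ ends 129 bp apart, and at +101.5 kb 50 and 50 reads were 177 bp apart. Weak sites did not all show this: at +2.2 kb the order of the MEL strands was turned (-152 bp, 18 reads), at the transcription start the ES-EP medians were 19.5 bp apart, and at +29.9 kb ES-EP had 0 plus-strand reads.

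The numbers on the strands were unequal at +30.8 kb, with 17 plus-strand and 77 minus-strand reads in ES-EP, 139 bp apart. The site at -10.2 kb had the same kind of imbalance in both cell types, 11 against 54 for MEL cells and 9 against 30 for ES-EP. Of the 130 positions left of the centre at which a plus-strand read could start, 93.8% at +30.8 kb and 100% at -10.2 kb have 27 bases that occur once in the genome, and on the minus strand 100% do at both. Over all 674 positions examined at each site, the share was lower, 72.4% at +30.8 kb and 81.8% at -10.2 kb. Only exact copies were counted, whereas the alignment allowed up to 2 mismatches. The cause of the imbalance was not tested.

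Repeated positions did not make up the ES-EP sites. The 140 reads at +64.4 kb came from 116 distinct combinations of position and strand within their libraries, and the 94 reads at +30.8 kb from 80.

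**Figure D3:**
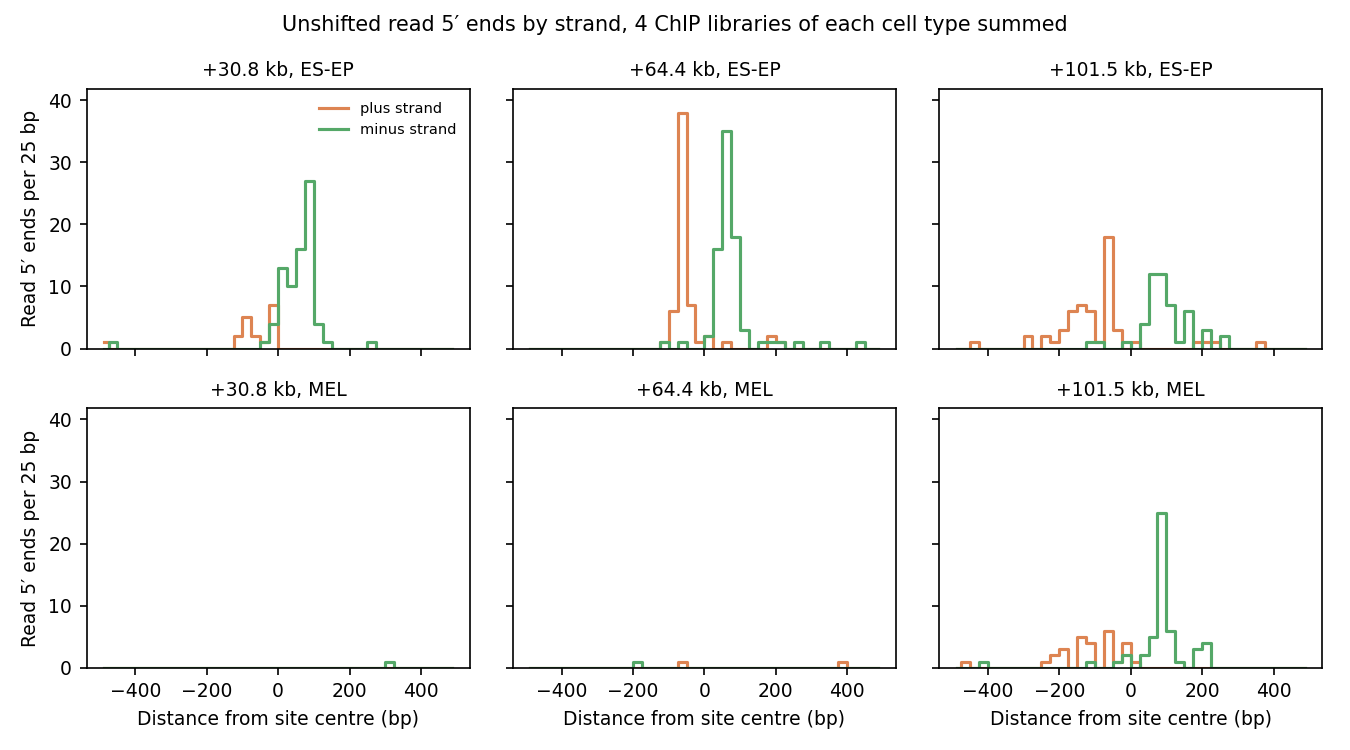
Unshifted 5′ ends of ChIP reads per 25 bp on the plus and minus strand, by distance in bp from the centre of 3 sites, with the 4 libraries of each cell type summed. In ES-EP the plus-strand ends lie mostly left and the minus-strand ends mostly right of each centre, the MEL panels at +30.8 and +64.4 kb are nearly empty, and the MEL panel at +101.5 kb shows both strands.

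The sequence, which the choice of the locus did not use, has a GGAA core close to the centre of both ES-EP sites. At +64.4 kb the matrix match AATGAGGAAGTCAG, read on the minus strand, lies at chr17:84169886-84169899, and its middle is 7 bp from the centre of the reads. It contains the word GAGGAAGT, which 22.9% of all sites and 2.85% of 10245 background windows of the same length hold on either strand. A match at least as good was present in 2.28% of background windows and in 23.2% of all sites.

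At +30.8 kb a GGAA core on the minus strand, the one in capitals above, lies 2 bp from the centre of the reads. GGAA by itself is uninformative over 500 bp, since 99.4% of background windows contain it. The best matrix match of this site is 114 bp from the centre and 24.7% of background windows score as high, so it does not pass the threshold that 10% of the background windows reach. The site holds GAGGAA but not GAGGAAGT.

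Of the 4 sites called in both cell types, those at +101.5 and -10.2 kb had better matches than the +64.4 kb site, and those at +26.1 and +155.3 kb had weaker ones. The match at +101.5 kb, GAAGAGGAAGTGGG, scored above every background window and above all but 0.453% of the sites over the genome. At -10.2 kb the match AAAGAGGAAGTGGT was reached by 0.0781% of background windows. Of the 7 sites called in ES-EP, 4 passed the matrix threshold, against 52.9% of all sites and 10.0% of background windows.

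Of the 7 ES-EP sites, 5 hold GAGGAA (58.7% of all sites, 38.6% of background windows) and 3 hold GAGGAAGT. The GATA word AGATAA was found at 2 of them, at +30.8 and +101.5 kb, and in 22.2% of all sites and 29.8% of background windows. The E-box CANNTG was found at 6 of them and in 93.3% of background windows. All words were searched on both strands, GAGGAAGT contains GAGGAA and GGAA, and the other words can share letters with these at their ends. A match is a description of the letters and not a measured contact.

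The Mta3 amplicon of the study covers the +64.4 kb site. Its primers are shown because the second one lies on the match itself.
forward: TAGCATTCCTCGACCGTTTGCTCA
reverse: AATGAGGAAGTCAGAACCGGGCAT
They enclose 104 bp at chr17:84169796-84169899, on the plus strand, and the last 14 bases of the amplicon are the reverse complement of the match AATGAGGAAGTCAG, with which the reverse primer begins.

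Input DNA was then checked for a loss of the locus in MEL cells. The region had 596 MEL and 912 ES-EP input reads, a depth-scaled MEL to ES-EP ratio of 1.14 (1.03 to 1.27). The gene body alone gave 1.22 (1.05 to 1.40), and chromosome 17 as a whole 0.932. Of 10861 autosomal stretches of the length of the region, 78.3% had a ratio at or below that of the region.

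No bin of the region was without MEL input reads. The 21 bins of 10 kb had at least 9 MEL input reads each, with ratios between 0.477 and 2.31, and the 43 bins of 5 kb had at least 3. The lowest ratio of the 5 kb bins was 0.263, with 3 MEL and 20 ES-EP input reads, in the bin from chr17:84080503. Of the autosomal bins of 5 kb, 3.42% had a ratio at or below it. The 5 kb around the +30.8 kb site had 11 MEL and 22 ES-EP input reads (ratio 0.875, 0.383 to 1.88), and those around the +64.4 kb site had 16 and 21 (1.33, 0.651 to 2.68).

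Inside the windows themselves MEL DNA was also read. The MEL input had 1 read in the 500 bp at +30.8 kb and 3 at +64.4 kb. Within 1 kb on each side of the middle but outside the windows, MEL ChIP libraries had 9 reads at +64.4 kb and those of ES-EP had 8. At +30.8 kb the numbers were 13 and 11, but this stretch takes in part of the site at +29.9 kb.

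The longest stretch without a MEL input read, 4208 bp, started at -26.8 kb. It held 11 reads of the MEL ChIP libraries and 14 ES-EP input reads. Over all 5 MEL libraries the longest empty stretch was 1868 bp and started at -25.9 kb, far from both ES-EP sites. The ES-EP libraries had 13 reads in it, 5 of them from input. It overlaps the 5 kb bin with the lowest input ratio, and whether MEL DNA is lost there was not tested. In ES-EP the longest over all 6 libraries was 1097 bp. A short loss or a change of single bases at the sites was not detectable at this depth, and no MEL ChIP or input read covers all 14 bases of the match at +64.4 kb.

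**Figure D4:**
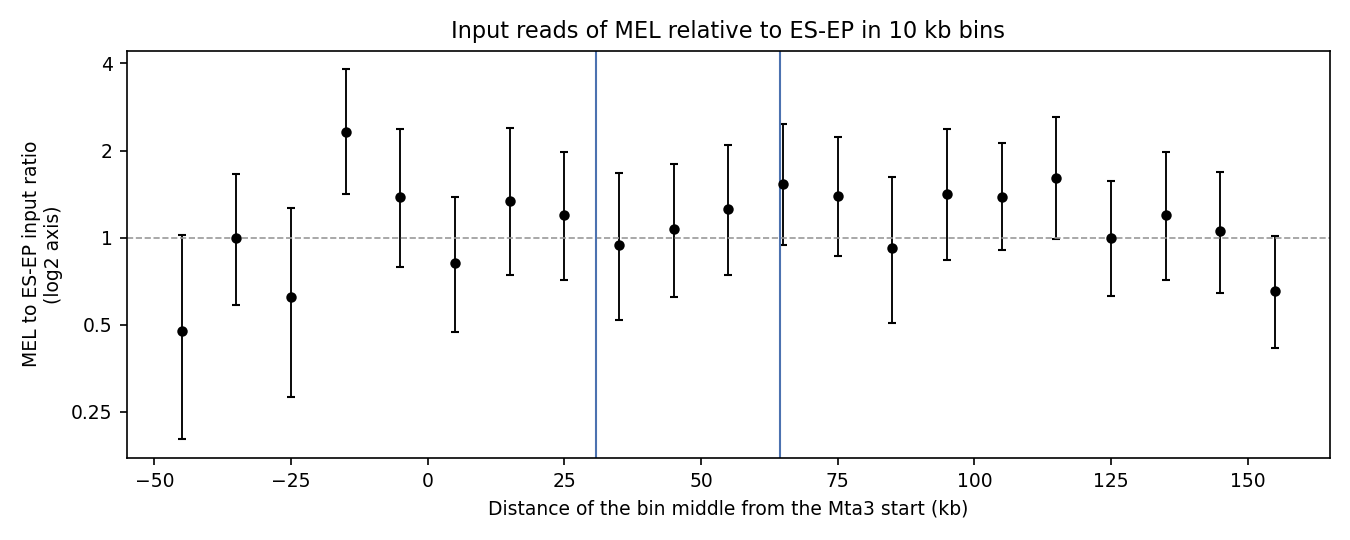
Depth-scaled ratio of MEL to ES-EP input reads in 10 kb bins of the region on a log2 axis, by distance from the Mta3 start in kb, with exact binomial 95% intervals. Vertical lines mark the sites at +30.8 and +64.4 kb, where the bins lie at 0.946 and 1.53, and the lowest bin, 0.477, is at the left edge.

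At the other genes of the NuRD complex no PU.1 site passed the test between the cell types when scaled by total reads. Of 14 genes besides Mta3, 13 had a site in the gene body or within 2 kb, with 33 sites in all, and 62.4% of all protein-coding genes had such a site. Gatad2b had none, and Rbbp4 and Mbd3, a histone-binding and a methyl-CpG-binding domain subunit, had none called in ES-EP. Still, ES-EP ChIP reads were not lacking at their promoters. Rbbp4 had 11 and 14 MEL reads against 19 and 30 of ES-EP there, with 2 and 30 input reads. Mbd3 had 8 and 28 against 47 and 17, with 4 and 32 input reads. At the other site of Rbbp4, 9 and 8 stood against 9 and 2, with 1 and 0 input reads. Of the 33 sites 16 were called in both cell types, beside 25.5% of all sites, 12 in MEL cells alone, beside 46.4%, and 5 in ES-EP alone, beside 28.1%. None passed limma's test between the cell types over preparations (lowest adjusted p = 0.159, Benjamini-Hochberg over all sites), and 3 of the 33 had an unadjusted p under 0.05 (9.09%, against 20.7% of all sites). With limma-trend 0 passed as well (7.8% of all sites) and 4 had an unadjusted p under 0.05 (23.6% of all sites). With median-ratio scaling 2 passed (9.49% of all sites), 1 at Gatad2a and 1 at Mta1. Over the genome limma called 0.84% of sites higher in ES-EP (321) and 1.83% higher in MEL cells (701). This balance rests on single preparations, since it was 111 against 21 without ES-EP preparation B, and 0 against 0 when MEL preparation A or B was left out in limma (4692 and 5190 sites with an unadjusted p under 0.05). The median log2 difference of ES-EP minus MEL was 0.51 over the 33 sites and 0.14 over all sites. Without MEL preparation A these medians were -0.04 and -0.12, and without ES-EP preparation A they were 0.06 and -0.15, so their sign rests on single preparations.

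The promoters of Mta1 and Mta2, the other metastasis-associated genes, show how these sites look. At Mta1, 39 bp from the nearest start, 38 and 94 MEL reads stood against 38 and 23 of ES-EP, a log2 difference of -1.07 (SE 0.72). At Mta2, 83 bp from a start, the numbers were 12 and 38 against 52 and 21, with 2 and 21 input reads and a log2 difference of 0.56 (SE 0.68). Neither passed limma's test with this scaling (adjusted p = 0.363 and 0.606).

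Gatad2a, which encodes a zinc finger subunit of NuRD, was the gene of the list with the most sites, 5. Its promoter site with the most reads, 328 bp from a start, had 25 and 40 MEL reads and 106 and 70 ES-EP reads, with 7 and 64 input reads. The log2 difference was 1.36 (SE 0.73). Chd4, the remodelling ATPase, had 8 and 19 MEL reads against 16 and 20 of ES-EP at its promoter, with 1 and 9 input reads. Hdac1, a histone deacetylase, had 12 and 37 against 51 and 27 at its promoter, with 2 and 27 input reads.

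Of 4 further genes, linked to NuRD or Mta3 and called partner genes here, 3 had sites (62.4% of all protein-coding genes). No site was called at Bcl6. None of the 13 sites of Gata1, Zfpm1 and Snai1 passed the test (lowest limma adjusted p = 0.0555), and 3 of them had an unadjusted p under 0.05, beside 20.7% of all sites. With limma-trend, which called 7.8% of all sites, 1 site of Gata1 passed. With median-ratio scaling, which called 9.49%, that site and the promoter site of Zfpm1 passed. Gata1 encodes the main erythroid transcription factor, and the site in question lies 1142 bp from its nearest start. That site had 10 and 38 MEL reads against 4 and 3 of ES-EP, with 7 and 3 input reads. The Gata1 site at 242 bp had 34 and 53 MEL reads against 22 and 21 of ES-EP, with 4 and 1 input reads. Zfpm1, which encodes the GATA-1 cofactor FOG-1, had 6 and 18 against 63 and 34 at its promoter, with 3 and 32 input reads. Without scaling to depth, ES-EP input reads outnumbered those of MEL cells at the promoters of Mta1, Mta2, Gatad2a, Chd4, Hdac1, Rbbp4, Mbd3 and Zfpm1. At Mta1 the numbers were 10 (MEL) and 20 (ES-EP), near the balance of the input totals, 4278560 and 7488885. At all 3 sites of Gata1 it was the MEL input reads that outnumbered those of ES-EP, although the ES-EP inputs held more reads in total. The inputs were not part of the limma fits, and their part in the ChIP reads at these sites was not tested.

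Over the gene body of Mta3 the reads of its 7 sites were 59 and 99 (MEL preparations A and B) and 246 and 162 (ES-EP), a depth-scaled ratio of 2.45. Of the reads at Mta3, 94 and 140 of ES-EP and 1 and 1 of MEL cells lay at +30.8 and +64.4 kb. The median of the 2534 protein-coding genes with at least 2 ES-EP sites in the body was 1.42, and 8.64% of these genes had a higher ratio than Mta3. Nothing is read from this rank, because the same reads chose the locus. The genes whose reads over the 4 preparations were nearest to those of Mta3, by Euclidean distance of log2 depth-scaled reads, were Ahi1 (distance 0.135), Rad51l1 (0.250), Ahnak (0.324), Fam53b (0.325) and Fam38a (0.351). At Ahi1, which encodes a protein of the ciliary base, 65 and 98 MEL reads stood against 244 and 162 of ES-EP. The likeness is in summed reads, and nothing is read from it.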

How the data were processed

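PU.1 ChIP-Seq of MEL cells and ES-EP was analysed from the deposited alignments, which the authors made with ELAND on mm9 from Illumina GAII reads, keeping unique placements with up to 2 mismatches. The ELAND version is not given in the sources used here. A deposited line is a placed read and carries no measured value, so all counts were made here. The library letter was taken as the preparation. The members, gene lists and tests were chosen with earlier results of these data known.

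Read 5′ ends were shifted by 70 bp (MEL) or 65 bp (ES-EP). For calling, 1 read per position and strand was kept in each library. A window passed a one-sided Poisson test against the highest of its input, the input within 5 or 10 kb and the genome mean where the Benjamini-Hochberg rate and the share found with ChIP and input swapped were both below 0.05. A site is the passing window with the most reads among its neighbours, with reads on both strands. All reads were then counted and scaled by total reads.

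Preparations were compared with limma 3.58.1 (voom, two-sided, no filter). Its p-values measure the spread between n = 2 preparations. The fit was tried on simulated counts with large changes at sites with many reads, so this does not show how it does with smaller changes or weak sites. A and B were not taken as pairs between cell types (deviations, r = -0.0099 over 38226 sites). The matrix of 14 positions, with the GGAA core fixed, was learned on 2544 sites outside chromosome 17. Genes came from GENCODE on the same assembly. The named items were all sites of the region, the NuRD and partner lists, and the 5 genes nearest to Mta3 among those with at least 2 ES-EP sites.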

Additional observations from a re-analysis of the deposited data

Results flagged for a closer look

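Of 20 groups of 4 ChIP libraries, 1 group per site and cell type, 3 had a library that stood apart from the other 3 by Dixon's criterion. For measured values chance meets this in about 1 in 20 groups. At +30.8 kb and at +64.4 kb it was the first library of MEL preparation B, with 3.66 reads per 10000000 at each site, where the other MEL libraries were at 0. Each of these values is 1 read, and 1 read beside 3 libraries at 0 always meets the criterion, so the chance rate does not apply and nothing is read from either. At the transcription start it was the second library of MEL preparation B, with 23.5 reads per 10000000 against a median of 10.97 in the others.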

How the results depend on the processing

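Of 153 recomputed values, 120 stayed the same and 33 moved. Ratios with ChIP reads were judged by the spread between preparations and counts by a factor of 1.5. The MEL to ES-EP input ratio was judged by its binomial interval. None of the ratios changed direction, and a count taken singly has none to change, but the balance of limma calls turned in 1 setting given below. In every alternative run, at least 2 sites of the region exceeded the 5-fold rule toward ES-EP, and there were 3 if MEL preparation B was dropped. With input subtracted before the ratio, 1 site, at +2.2 kb, passed the rule toward MEL cells. Its ES-EP reads lay below scaled input and were set to 0. The number of sites called in the region ranged from 4 to 8 (MEL) and from 4 to 7 (ES-EP) when a preparation was left out. The first library of each preparation gave 3 (MEL) and 4 (ES-EP), and the second gave 4 (MEL). The ChIP to input ratio over the ES-EP sites was 7.95 (MEL) and 19.7 (ES-EP) with windows of 200 bp, 14.7 in ES-EP with first libraries, 16.1 in ES-EP with the input density in 10 kb, and between 7.34 and 12.6 in ES-EP without single preparations. Except with the input density in 10 kb, these runs called the sites anew, so the sites summed differ between them. The cause of these shifts was not tested. The summed ES-EP to MEL ratio ran from 1.82 to 3.37, judged here against ratios matched by letter alone.

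The limma counts depended on the fit. Sites higher in ES-EP, and sites higher in MEL cells, numbered 91 and 159 with at least 20 reads, 2042 and 3133 with each library as a sample, 1098 and 1884 with limma-trend, and 1370 and 2256 with median-ratio scaling, which moved the median of all sites by -0.11 on the log2 scale. With the preparation letter as a replicate block they were 232 and 446. Without single preparations they ranged from 0 to 111 and from 0 to 32: dropping preparation B of ES-EP gave 111 and 21, the opposite balance to 321 and 701 with all preparations, and dropping preparation A of ES-EP gave 4 and 32. The lone preparation is then assumed to vary like the other cell type, and both counts were 0 without MEL preparation A (4692 sites with an unadjusted p under 0.05 in limma) and without MEL preparation B (5190). The block changed no call among the NuRD genes. The 321 sites higher in ES-EP with both preparations include 2 of the region, and from 0 to 2 of them without single preparations: 0 without preparation A of ES-EP and without either MEL preparation, and 2 without preparation B of ES-EP. They are no test of the locus, which was picked with these reads known. Among the 33 NuRD sites 2 passed with median-ratio scaling, 1 at Gatad2a (log2 difference 1.24, adjusted p = 0.037) and 1 at Mta1 (-1.19, adjusted p = 0.0447). Neither passed in another fit. Of the 13 sites at partner genes, with each library as a sample 2 passed, at Gata1 and Zfpm1. In that fit 2042 and 3133 of all 38226 sites passed. It takes the 2 libraries of a preparation as separate samples, so its calls do not measure the spread between preparations. The MEL to ES-EP input ratio stayed between 1.11 and 1.23. Depth limits the sites with few reads most: with 1 MEL read, the size of the difference is known only as an interval.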
